A study of Mus musculus with 20 samples.

Results

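A set of 10 plasma-protein genes of the hepatic acute phase response was followed in mouse liver: the orosomucoids Orm1, Orm2 and Orm3, the serum amyloid A genes Saa1, Saa2, Saa3 and Saa4, haptoglobin (Hp), Lrg1 and Lcn2. They are 10 of the 21450 gene symbols in the table, and every probe carrying one of them was kept, which gave 15 of its 30146 probes, and 13 of the 15 had enough counts to be among the 14122 probes tested. The livers came from male Balb-C mice of 10 to 12 weeks that received vehicle or Nafion byproduct 2 by daily gavage over 7 days; the compound is a fluorinated ether sulfonic acid from the manufacture of a fluoropolymer membrane. Every group held 4 mice with 1 library per mouse, and the 5 groups were animals given vehicle alone or a daily dose of 0.03, 0.3, 3 or 6 mg/kg. Which vehicle was used was not settled, since the control titles read DMSO and the protocol gives deionized water. RNA was measured with TempO-Seq, in which pairs of short detector oligonucleotides are ligated on their target RNA, amplified and counted.

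In the acute phase response, cytokines such as interleukin-6 and interleukin-1 reach hepatocytes and change the output of secreted proteins through STAT3, NF-kappaB and the C/EBP transcription factors, with glucocorticoids acting beside them. Orosomucoids are lipocalins that bind basic drugs and lipids in plasma, serum amyloid A proteins are carried on high-density lipoprotein, haptoglobin captures free hemoglobin, and lipocalin 2 binds bacterial siderophores. These proteins are classical markers of inflammation, and the liver is the main source of most of them in plasma.

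Between 6823518 and 10310931 counts were deposited per library, and 3 counts corresponded to 0.251 to 0.510 CPM (counts scaled to a common library size after TMM normalization), and the 15 probes together took 0.262% to 0.421% of the counts. Such floors cover counting error only, because amplified reads are not independent molecules. All 10 hepatocyte markers were measured, with a summed level of 30981 to 40083 CPM in controls and 21840 to 26285 CPM at 6 mg/kg. The sum does not describe each marker: in the test given below, 4 were lower and 1 higher at 6 mg/kg. Among all genes 9.63% were lower and 10.9% higher there. Those lower were Alb (10664 to 6046 CPM), Cyp2e1 (9617 to 5503 CPM), Ahsg and Serpina1a, and the one higher was Tat. Apoa1, Apoc3, Ttr, Apob and Hnf4a did not pass. The fourth libraries at 3 and at 6 mg/kg were already known from earlier work on these data to sit apart from their groups, and had TMM factors of 1.19 and 1.18. In the well names of the titles, row A held the controls (columns 2 to 5), the 0.03 mg/kg group (6 to 9) and 3 libraries at 0.3 mg/kg (10 to 12). Row B held the fourth library at 0.3 mg/kg (column 2), the 3 mg/kg group (3 to 6) and the 6 mg/kg group (7 to 10). In fits with a mean for each group, a row effect can therefore be estimated from the 0.3 mg/kg libraries alone. Only the fourth of these lay in row B.

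The 3 orosomucoid genes lie side by side on chromosome 4 of GRCm38 (Orm1 63344560 to 63348163, Orm3 63356162 to 63359511, Orm2 63362449 to 63365878, all on the forward strand). The 4 serum amyloid A genes form a cluster on chromosome 7 (Saa3 46711998 to 46715700, Saa4 46727998 to 46732603, Saa1 46740497 to 46742980, Saa2 46751790 to 46754313, with Saa2 on the forward strand and the others on the reverse). Hp lies on chromosome 8 (109575128 to 109579172), Lrg1 on chromosome 17 (56119678 to 56122001) and Lcn2 on chromosome 2 (32384633 to 32388252), each on the reverse strand. RefSeq promoter windows of build GRCm38.p6 were matched by symbol for 8 of the 10 genes, all except Orm1 and Hp. The 250 bases before the start site are shown for the pair of orosomucoid genes that rose and for the 2 serum amyloid A genes closest to each other, for a comparison of a pair that rose with a pair that did not pass the test. Capitals mark the C/EBP core TTGCNCAA and the glucocorticoid half-site AGAACA, each searched on both strands. The windows lie at chr4:63362199-63362448 (Orm2, forward), chr4:63355908-63356157 (Orm3, forward), chr7:46742981-46743230 (Saa1, reverse) and chr7:46751583-46751832 (Saa2, forward), and each is printed 5′ to 3′ along its gene.
Orm2: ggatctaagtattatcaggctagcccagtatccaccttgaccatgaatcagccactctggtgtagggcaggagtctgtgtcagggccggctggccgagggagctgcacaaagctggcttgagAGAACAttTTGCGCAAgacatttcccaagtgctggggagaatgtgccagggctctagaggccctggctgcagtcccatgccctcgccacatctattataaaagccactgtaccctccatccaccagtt
Orm3: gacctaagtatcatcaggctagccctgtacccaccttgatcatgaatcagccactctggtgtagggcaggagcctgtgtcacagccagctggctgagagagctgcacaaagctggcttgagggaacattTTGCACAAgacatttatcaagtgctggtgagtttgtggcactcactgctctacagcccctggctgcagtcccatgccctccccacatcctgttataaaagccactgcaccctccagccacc
Saa1: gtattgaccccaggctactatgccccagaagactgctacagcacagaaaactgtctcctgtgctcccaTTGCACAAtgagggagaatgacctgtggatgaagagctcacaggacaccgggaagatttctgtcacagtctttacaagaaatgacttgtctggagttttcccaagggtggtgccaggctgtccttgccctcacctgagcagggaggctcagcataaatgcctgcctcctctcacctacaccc
Saa2: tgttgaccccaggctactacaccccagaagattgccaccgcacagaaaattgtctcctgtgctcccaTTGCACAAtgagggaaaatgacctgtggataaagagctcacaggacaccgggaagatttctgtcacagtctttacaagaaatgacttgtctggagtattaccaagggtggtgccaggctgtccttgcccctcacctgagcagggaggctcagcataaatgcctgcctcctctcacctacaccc

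The Orm2 and Orm3 windows were 89% identical over 245 aligned bases, and those of Saa1 and Saa2 95.6% over 249. Both orosomucoid windows held the C/EBP core, from -120 to -113 in Orm2 and from -121 to -114 in Orm3, and only Orm2 held the glucocorticoid half-site beside it, from -128 to -123. In Saa1 and Saa2 the core lay farther out, from -182 to -175 and from -183 to -176. Saa4 (-52 to -45) and Lcn2 (-216 to -209) also held it, so that the core was found in 6 of 8 windows, against 2.61% of 32851 promoter windows of 250 bases; this form of the motif was chosen after the letters of these windows had been seen. Other shares were 1 of 8 against 16.1% for AGAACA, 2 of 8 against 7.59% for the TATA box TATAAA (gene strand only, in Orm2 and Orm3), 0 of 8 against 7.02% for the STAT palindrome TTCNNNGAA and 0 of 8 against 7.25% for the NF-kappaB consensus. A match of letters is a description and not a measured site.

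At 6 mg/kg the orosomucoid genes Orm2 and Orm3 rose, one of the 3 Hp probes and Lcn2 rose, and Lrg1 and Saa3 fell, while Orm1, Saa1, Saa2, Saa4 and the other 2 Hp probes did not pass (edgeR quasi-likelihood test, Benjamini-Hochberg adjusted p under 0.05 over all tested probes). That is 5 of 13 tested probes higher, where 11.6% of all tested probes were higher, and 2 lower, where 8.73% were lower. At 3 mg/kg, 2 of 13 were higher (1.11% of all probes), Orm2 and Orm3, and 0 lower (0.382%). At 0.03 and 0.3 mg/kg 0 of 13 passed, as did 0 of all 14122 probes with edgeR (percent called 0), and DESeq2 and limma-voom also called 0 of these 13. Unadjusted p-values under 0.05 were found for 0 of the 13 at 0.03 mg/kg and 1 at 0.3 mg/kg, and for 457 and 1175 of all probes. Groups without any overlap with controls were found for 1 probe above (3.36% of all probes) and 1 below (4.6%) at 3 mg/kg, and for 4 above (13.2%) and 1 below (13.6%) at 6 mg/kg. Between 3 and 6 mg/kg, 2 of 13 passed as higher (3.96% of all probes) and 1 as lower (2.77%), with 4 above (5.88%) and 0 below (5.2%) without overlap. The median log2 difference from control over the 13 probes was -0.02, -0.23, 0.31 and 0.35 at the 4 rising doses, where the median of all tested probes was -0.0040, 0.00045, 0.0012 and 0.011. Both Orm3 probes were kept by the low-count filter (1.13 CPM in at least 4 libraries) almost entirely through the 3 and 6 mg/kg libraries and so had to differ, which is why these counts and medians are a description only.

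**Figure D1:**
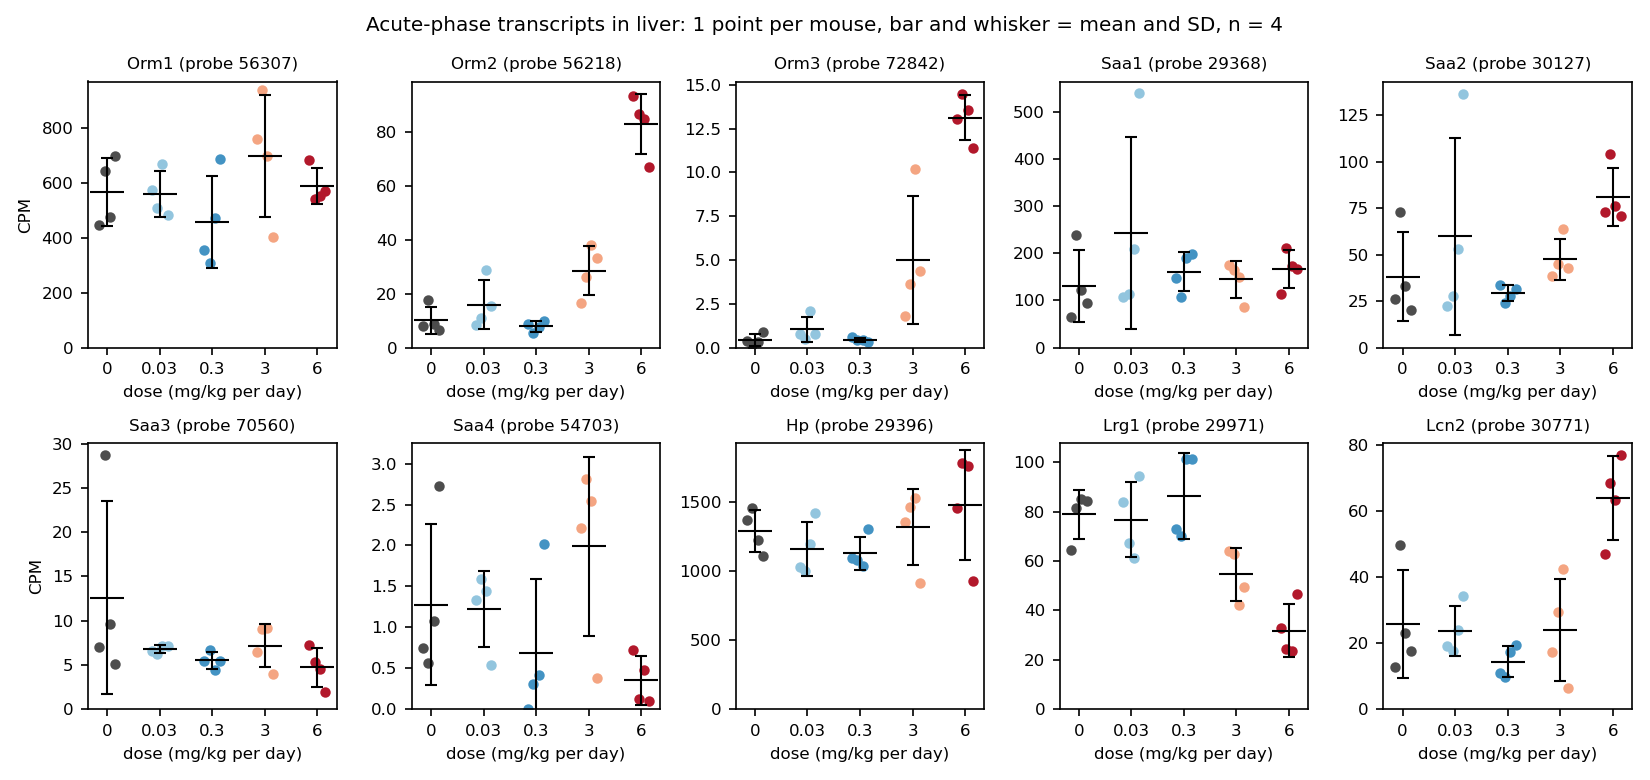
Level of each gene's main probe in every library (CPM, linear axes from 0) by dose in mg/kg per day, with 1 point per mouse and the group mean ± SD, n = 4. Orm2 and Orm3 climb at 3 and 6 mg/kg, with Orm2 still overlapping the controls at 3 mg/kg, and Lrg1 declines at both. Lcn2 is higher on average at 6 mg/kg but overlaps the controls, and the other panels overlap the controls at every dose.

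**Figure D2:**
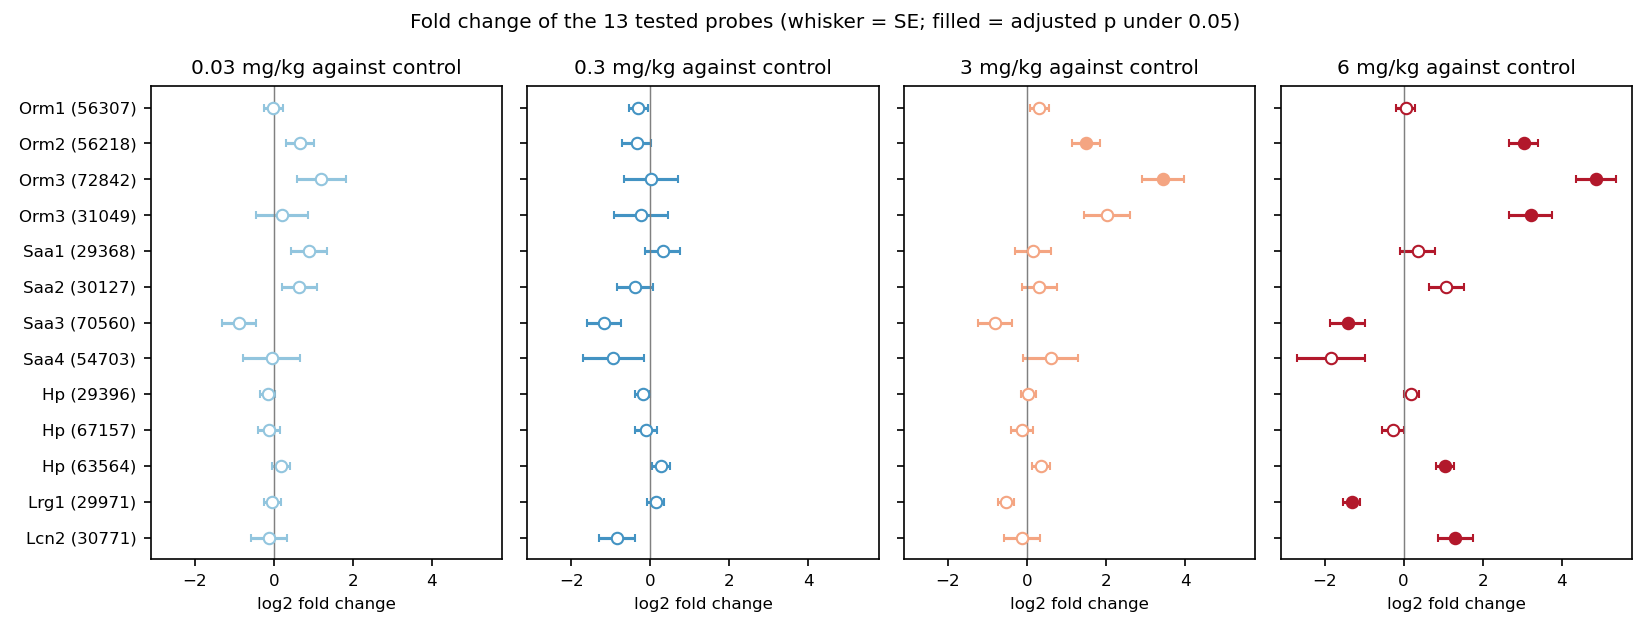
Log2 fold change against control for the 13 tested probes at 4 doses, with bars of 1 SE (derived from the test statistic) and filled points for an adjusted p under 0.05. No point is filled at 0.03 or 0.3 mg/kg, 2 are filled at 3 mg/kg and 7 at 6 mg/kg.

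Orm2 rose with dose from 3 mg/kg on. Its probe read 7.85, 17.6, 8.61 and 6.48 CPM in the 4 controls, 16.7, 26.3, 37.9 and 33.2 CPM at 3 mg/kg and 93.4, 86.5, 84.9 and 67.0 CPM at 6 mg/kg. All 6 mg/kg libraries were above all controls and all 3 mg/kg libraries, and at 3 mg/kg only the lowest library fell under the highest control. The log2 fold change from control was 3.03 at 6 mg/kg (SE 0.36, edgeR adjusted p = 9.3e-06), which is 8.19-fold. At 3 mg/kg it was 1.49 (SE 0.35, edgeR adjusted p = 0.036), and 6 mg/kg was above 3 mg/kg by 1.54 (SE 0.34, edgeR adjusted p = 0.011). The low doses showed no such step: Orm2 read 8.53, 11.1, 28.6 and 15.5 CPM at 0.03 mg/kg and 5.37 to 9.96 CPM at 0.3 mg/kg. The call at 3 mg/kg was lost in 12 of 33 alternatives. Among them were plate row or plate column as a covariate, only the groups compared, and no count filter. This call was also lost without the fourth libraries at 3 and 6 mg/kg (1.41, edgeR adjusted p = 0.11) and without control replicates 1, 3 or 4 (0.13, 0.11 and 0.13). The same held without replicates 2, 3 or 4 at 3 mg/kg (0.060, 0.0998 and 0.076) and without replicate 3 at 0.3 mg/kg (0.051). The call at 6 mg/kg was lost only with plate row as a covariate (2.58, edgeR adjusted p = 0.059). The step from 3 to 6 mg/kg was lost with plate column (adjusted p = 0.080), on those 8 libraries alone (0.068) and without replicate 1 at 3 mg/kg (0.055).

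Orm3 rose from near the floor. Its main probe held 3, 1, 3 and 7 counts in controls, 7, 5, 19 and 7 at 0.03 mg/kg and 6, 4, 5 and 3 at 0.3 mg/kg. It held 13, 32, 60 and 46 counts at 3 mg/kg and 109, 119, 115 and 114 at 6 mg/kg, and neither of these groups overlapped the controls. As levels, 0.436 ± 0.330 CPM (SD, n = 4) in controls stood against 4.99 ± 3.63 CPM at 3 mg/kg and 13.1 ± 1.30 CPM at 6 mg/kg. The log2 fold changes of 3.45 (SE 0.53, edgeR adjusted p = 0.00083) and 4.87 (SE 0.51, edgeR adjusted p = 1.0e-06) rest on 14 control counts in all and are imprecise at that end. The second Orm3 probe moved the same way, from 1, 6, 6 and 2 counts in controls to 5, 24, 20 and 12 at 3 mg/kg and 38, 62, 34 and 18 at 6 mg/kg. It passed at 6 mg/kg (log2 3.22, SE 0.54, edgeR adjusted p = 0.00028) and not at 3 mg/kg (2.02, SE 0.58, edgeR adjusted p = 0.095), where 1 library lay within the control range. Both Orm3 probes reached the test almost entirely through the 3 and 6 mg/kg libraries. Their p-values against control and their calls in the alternatives are therefore a description only. The main probe was called at 6 mg/kg in 33 of 33 alternatives and at 3 mg/kg in 31 of 33. The exceptions at 3 mg/kg were the fit on the 8 libraries compared (edgeR adjusted p = 0.072) and the plate row covariate (0.92), while the second probe lost its 6 mg/kg call with plate row (2.55, edgeR adjusted p = 0.25).

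Between 3 and 6 mg/kg the main Orm3 probe rose again by 1.42 (SE 0.38, edgeR adjusted p = 0.028), with every 6 mg/kg library above every 3 mg/kg library. That call was lost with plate column as a covariate (0.98, edgeR adjusted p = 0.55), on the 8 libraries alone (0.16) and without replicates 1 or 2 at 3 mg/kg (0.10 and 0.097) or replicates 2 or 3 at 6 mg/kg (0.069 and 0.058). Over all 5 groups, the slope per step of dose rank was 0.72 for Orm2 (SE 0.11, edgeR adjusted p = 0.00012) and 1.32 for the main Orm3 probe (SE 0.15, edgeR adjusted p = 2.0e-06), in a test that called 11.3% of all probes as rising, and both calls were lost with plate row as a covariate. In the slope fit, the row term nearly coincides with the step from 0.3 to 3 mg/kg. The Orm3 slope carries the same limit from the low-count filter and is a description only.

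Orm1, the third gene of the cluster, did not pass at any dose. It read 565 ± 124 CPM in controls, 559 ± 83.6 at 0.03, 456 ± 168 at 0.3, 699 ± 222 at 3 and 587 ± 65.7 CPM at 6 mg/kg (SD, n = 4 each). At 6 mg/kg its log2 difference from control was 0.05 (SE 0.24, edgeR adjusted p = 0.89), and the groups overlapped at every dose. The spliced transcripts of the 3 genes are close copies: Orm1 and Orm2 were 91% identical, Orm2 and Orm3 88.5% and Orm1 and Orm3 86.5%. Among windows of 50 bases along Orm2, 20.4% also occur unchanged in Orm1 and 3.58% in Orm3. Probe sequences were not used, so how far each orosomucoid probe also reads a neighbour's RNA cannot be told, and the split of the response among the 3 genes is uncertain.

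Of the serum amyloid A genes, Saa1 and Saa2 encode the inducible proteins made in hepatocytes, and neither passed at any dose. The counted Saa1 probe read 65.5, 239, 121 and 94.6 CPM in controls and 114, 211, 173 and 167 CPM at 6 mg/kg, a log2 difference of 0.35 (SE 0.45, edgeR adjusted p = 0.61). Its highest library was at 0.03 mg/kg, where 107, 114, 209 and 540 CPM were found, and the groups overlapped throughout. A second Saa1 probe held 0 counts in all 20 libraries, where 3 counts would be 0.251 to 0.510 CPM, and was not tested.

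Saa2 read 26.3, 73.1, 33.4 and 20.2 CPM in controls, 38.5, 45.2, 63.7 and 43.0 CPM at 3 mg/kg and 72.9, 104, 76.4 and 70.8 CPM at 6 mg/kg. The 6 mg/kg libraries all lay above the 3 mg/kg libraries and above 3 of 4 controls, and control replicate 2 reached into their range. At 0.03 mg/kg Saa2 read 22.2, 27.8, 52.9 and 137 CPM, with its highest library the same one as for Saa1, and at 0.3 mg/kg 29.2 ± 4.31 CPM (SD, n = 4). The log2 difference from control was 1.08 (SE 0.45, edgeR adjusted p = 0.096). It passed in 4 of 33 alternatives: limma-voom, the fit on the 8 libraries compared, without control replicate 2 (1.60, edgeR adjusted p = 0.024) and without replicate 4 at 0.03 mg/kg. The ratio of Saa2 to Saa1 counts within a library, a quantity chosen after its values were seen and given as a description, was 0.299 ± 0.078 in controls (SD, n = 4; range 0.214 to 0.401) and 0.500 ± 0.099 at 6 mg/kg (0.424 to 0.642). It was 0.239 ± 0.022 at 0.03, 0.189 ± 0.042 at 0.3 and 0.353 ± 0.128 at 3 mg/kg. The Saa1 and Saa2 transcripts were 94.4% identical, and 13.2% of the 50-base windows of Saa1 occur unchanged in Saa2, so signal may be shared between their probes to an extent that cannot be told.

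Saa3, a serum amyloid A made by macrophages and other cells as well as by hepatocytes, read 6.98, 28.7, 9.58 and 5.06 CPM in controls and 7.18, 5.35, 4.49 and 1.90 CPM at 6 mg/kg. Control replicate 2 was far above the other libraries and the groups overlapped. The fall passed at 6 mg/kg (log2 -1.41, SE 0.44, edgeR adjusted p = 0.029) but not without control replicate 2 (-0.62, edgeR adjusted p = 0.22), without replicate 3 (0.064) or 4 (0.086) at 6 mg/kg, or with plate column as a covariate (0.33); it was lost in 9 of 32 alternatives. The intermediate groups were at 6.76 ± 0.433, 5.52 ± 0.933 and 7.16 ± 2.44 CPM at 0.03, 0.3 and 3 mg/kg. Among markers of Kupffer cells, the resident macrophages of liver, C1qb and Folr2 fell at 6 mg/kg and the other 9 of 11 tested genes did not pass, where 9.63% of all genes were called lower. The summed level of the 14 listed genes was 164 to 222 CPM in controls and 116 to 170 CPM at 6 mg/kg, ranges that overlap, and its part in the Saa3 result was not tested. In whole-liver RNA, fewer cells of a type and less RNA per cell cannot be told apart.

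Saa4, the constitutively made member of the family, was near the floor. It held 6, 4, 10 and 21 counts in controls, 0, 3, 5 and 18 at 0.3 mg/kg, 16, 25, 15 and 4 at 3 mg/kg and 6, 1, 4 and 1 at 6 mg/kg. The log2 difference at 6 mg/kg was -1.84 (SE 0.86) and did not pass (edgeR adjusted p = 0.13). With plate row as a covariate it was -4.79 (adjusted p = 0.043).

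Hp was read by 3 probes that did not behave alike. The main probe went from 1288 ± 151 CPM in controls to 1478 ± 397 CPM at 6 mg/kg (SD, n = 4; log2 0.20, SE 0.19, edgeR adjusted p = 0.48), and the probe with the second highest count from 789 ± 26.0 to 656 ± 252 CPM (-0.27, SE 0.28, edgeR adjusted p = 0.53). The third probe read 271, 320, 276 and 219 CPM in controls and 568, 539, 519 and 608 CPM at 6 mg/kg, with no overlap (1.04, SE 0.23, edgeR adjusted p = 0.0032). Summed per gene, Hp did not pass, at 2349 ± 211 CPM in controls and 2693 ± 611 CPM at 6 mg/kg (log2 0.23, SE 0.16, edgeR adjusted p = 0.32). A rise of the gene as a whole was therefore not measured.

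The share of Hp counts taken by the third probe also followed the well column. It was 10.3% to 12.4% in all 8 libraries from wells 2 to 5, which include the controls, 1 library at 0.3 mg/kg and 3 at 3 mg/kg. It was 13.1% to 33.2% in all 10 libraries from wells 7 to 12, which include 3 at 0.03 mg/kg, 3 at 0.3 mg/kg and all at 6 mg/kg, and 11.3% and 31.2% in the 2 libraries from well 6. In a fit with the column number as a further term, chosen once this had been seen, the difference at 6 mg/kg was 0.64 (SE 0.26, edgeR adjusted p = 0.17), and with plate row it was 1.52 (adjusted p = 0.069). Wells 7 to 9 held libraries at 0.03 mg/kg in row A and at 6 mg/kg in row B. There the third probe read 241, 346 and 424 CPM at 0.03 mg/kg and 568, 539 and 519 CPM at 6 mg/kg. Its shares in those wells were 13.1%, 15.4% and 15.4% at 0.03 mg/kg and 21.0%, 16.9% and 17.1% at 6 mg/kg. In wells 10 to 12 of row A, at 0.3 mg/kg, its shares were 16.3%, 15.8% and 17.4%. The fourth libraries at 3 and 6 mg/kg had the highest shares, 31.2% and 33.2%, and the lowest shares of the second probe, 17.4% and 16.2%, against 25.3% to 36.5% in the other 18 libraries.

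**Figure D3:**
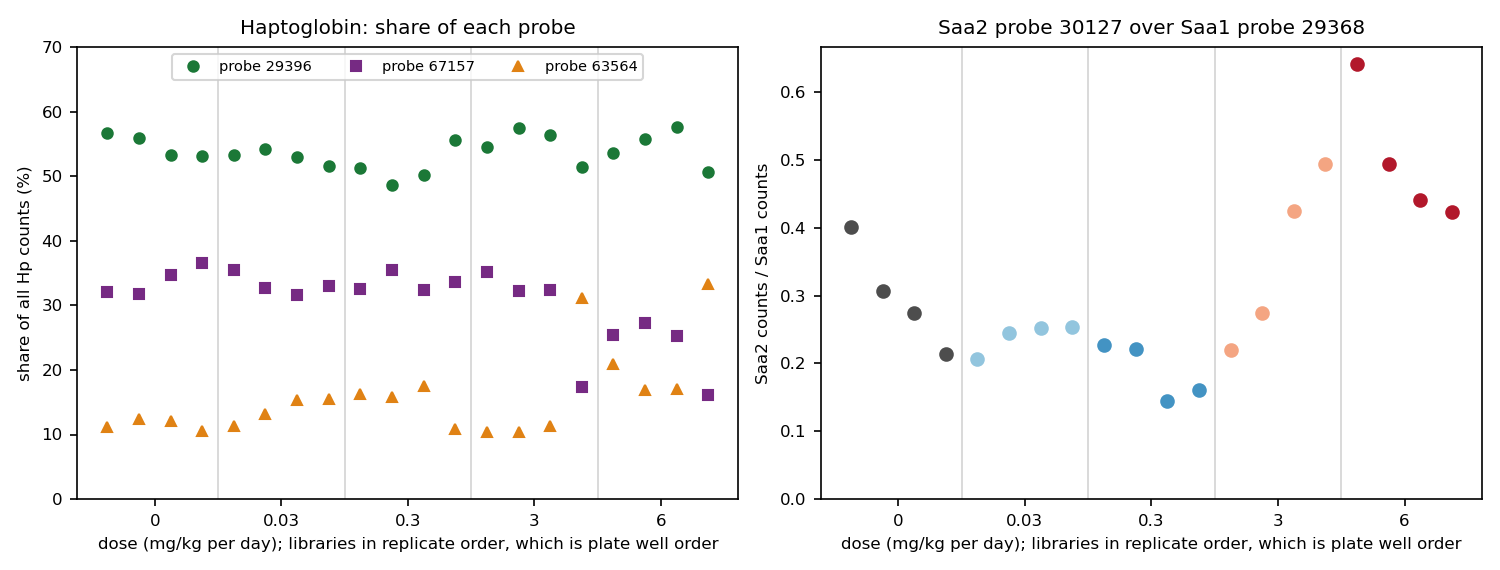
Share of Hp counts taken by each of its 3 probes (percent) and ratio of Saa2 to Saa1 counts, in every library by dose, with 1 point per library in plate well order within a group (circles, squares and triangles are the main probe, the second probe and the third probe of Hp). The third Hp probe takes 31.2% in the fourth 3 mg/kg library and 33.2% in the fourth 6 mg/kg library against 10.3% to 21.0% elsewhere, and the Saa2 to Saa1 ratio at 6 mg/kg lies between 0.424 and 0.642.

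Lrg1, a leucine-rich glycoprotein of plasma that modulates TGF-beta signalling, went down as Orm2 and Orm3 went up. It read 64.4, 81.5, 85.2 and 84.3 CPM in controls, 63.9, 63.0, 42.1 and 49.3 CPM at 3 mg/kg and 32.9, 24.3, 23.4 and 46.5 CPM at 6 mg/kg. Every library at 3 mg/kg and at 6 mg/kg was below every control. The fall was -1.31 on the log2 scale at 6 mg/kg (SE 0.21, edgeR adjusted p = 0.00021) and was called in 33 of 33 alternatives, with adjusted p-values up to 0.028. At 3 mg/kg the difference of -0.53 (SE 0.21) did not pass (edgeR adjusted p = 0.30), and the low doses were at 76.8 ± 15.2 and 86.4 ± 17.3 CPM. The step from 3 to 6 mg/kg was -0.78 (SE 0.21, edgeR adjusted p = 0.032), a call lost in 7 of 33 alternatives: with total counts only (0.12), on the 8 libraries alone (0.17), with plate column (0.23), and without replicates 1 or 2 at 3 mg/kg (0.10 and 0.10) or 2 or 3 at 6 mg/kg (0.099 and 0.10). The slope over dose rank was -0.31 (SE 0.07, edgeR adjusted p = 0.0029; 6.72% of all probes had a called falling slope), a call lost with plate row (adjusted p = 0.13).

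Lcn2, a secreted lipocalin that both hepatocytes and neutrophils make, rose at 6 mg/kg. It read 12.8, 49.7, 23.1 and 17.6 CPM in controls, 17.4, 29.6, 42.5 and 6.47 CPM at 3 mg/kg and 47.1, 68.6, 63.3 and 77.1 CPM at 6 mg/kg. The 6 mg/kg libraries were above all at 3 mg/kg and above 3 of 4 controls, and control replicate 2 stood within their range. The low doses were at 23.8 ± 7.55 CPM (0.03 mg/kg) and 14.4 ± 4.74 CPM (0.3 mg/kg; SD, n = 4). The log2 fold change was 1.31 (SE 0.45, edgeR adjusted p = 0.048). This call lay close to the threshold and held in 16 of 33 alternatives, with adjusted p-values from 0.0099 to 0.70. It was lost with no count filter, with plate row or column (0.70 and 0.19) and when any of 14 single libraries was left out; without control replicate 2 it was 1.84 (edgeR adjusted p = 0.011). The second Lcn2 probe held 0 to 2 counts in every library and was not tested.

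Most neutrophil markers were at or near the floor. Of 14 marker genes, Elane, Mpo, Camp, Ngp, Ltf, Mmp8 and Cxcr2 held 0 to 6 counts per library in controls and at 6 mg/kg, and S100a9 and Ly6g were at 0.875 and 1.59 CPM in controls and 0.463 and 0.767 CPM at 6 mg/kg. Il1b and Retnlg were at 3.37 and 1.15 CPM in controls and 2.11 and 1.09 CPM at 6 mg/kg, and neither passed. Csf3r and Mmp9 had too few counts to be tested. S100a8, a calcium-binding protein of myeloid cells that is also on this list, was at 1.53 CPM in controls and 46.7 CPM at 6 mg/kg and carried the summed neutrophil level from 7.13 to 12.3 CPM in controls to 36.9 to 62.4 CPM.

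Within each group, 1 library often had the highest or lowest value in several of the 13 tested probes. Control replicate 2 was highest in 9 of 13, including Saa1, Saa2, Saa3, Lcn2 and Orm2, and in 21% of all tested probes. Replicate 4 was highest in 8 of 13 at 0.03 mg/kg (30.6% of all probes) and in 8 of 13 at 0.3 mg/kg (32.9%), replicate 3 in 7 at 3 mg/kg (24%) and replicate 2 in 6 at 6 mg/kg (17%). The fourth libraries at 3 and 6 mg/kg were lowest in 7 and 8 of 13, and in 40.2% and 37.7% of all probes. Control replicate 2 is the library that overlapped the 6 mg/kg range in Saa2 and Lcn2 and that set the Saa3 difference.

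**Figure D4:**
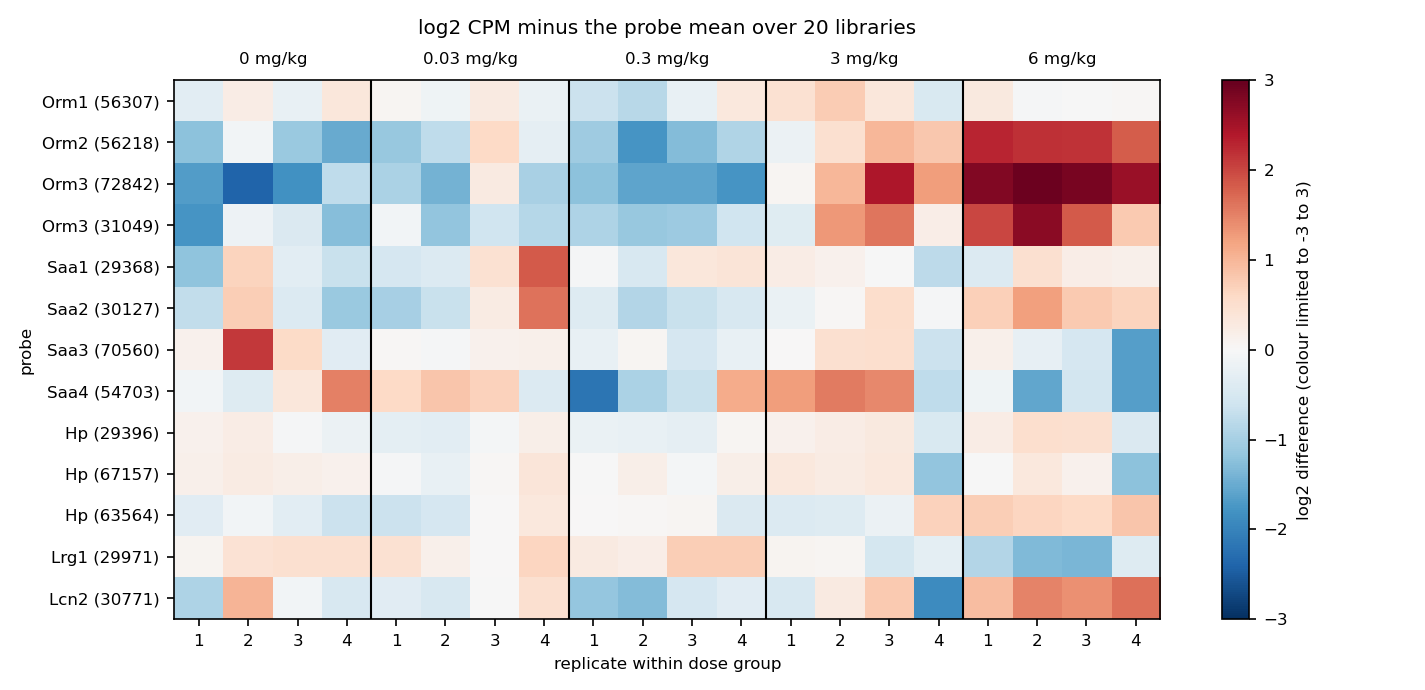
Level of each tested probe in each of the 20 libraries as log2 CPM minus the probe's mean, with the colour scale limited to 3 in each direction. The Orm2 and Orm3 rows are high at 6 mg/kg in all 4 libraries, the Lrg1 row is low there, and the Saa1, Saa2, Saa3 and Lcn2 rows are high together in control replicate 2.

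The cytokine pathways that drive these genes were followed through lists that were chosen with earlier results of these data known. A list's count at 6 mg/kg is set against 10.9% of 10101 genes called higher and 9.63% called lower by their main probe, and at 3 mg/kg against 1.13% and 0.406%. Of 9 tested genes of interleukin-6 and STAT3 signalling, 0 rose and 4 fell at 6 mg/kg, with a median log2 difference of -0.41. They were Il6st, the shared receptor chain gp130 (from 233 to 182 CPM, log2 -0.36, SE 0.10), Lifr, the receptor of leukemia inhibitory factor (from 152 to 45.9 CPM, -1.73, SE 0.52), and the kinases Jak1 (-0.41, SE 0.13) and Jak2 (-0.45, SE 0.15). Stat3 itself, at 140 CPM in controls and 93.9 CPM at 6 mg/kg, did not pass (-0.58, SE 0.21, edgeR adjusted p = 0.059). The receptor Il6ra (0 to 7 counts per library), the cytokine Il6 (0 to 3 counts on either probe) and the feedback inhibitor Socs3 were too low to test. The more counted Socs3 probe held 10, 5, 42 and 6 counts in controls and 1, 2, 0 and 4 at 6 mg/kg.

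Interleukin-1 and NF-kappaB genes went both ways. Of 22 tested, 2 rose at 6 mg/kg, the kinase subunit Ikbkg (0.87, SE 0.20) and the receptor antagonist Il1rn (0.96, SE 0.32), and 3 fell, the receptor chains Il1rap (-0.90, SE 0.19) and Il1r1 (-0.63, SE 0.20) and the kinase Chuk (-0.47, SE 0.17). The median over the list was 0.01.

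Among 17 tested transcription factors of the response, Cebpa and Cebpb moved in opposite directions at 6 mg/kg. Cebpa, the C/EBP factor of the resting hepatocyte, fell from 912 ± 67.2 to 360 ± 24.2 CPM (SD, n = 4; log2 -1.34, SE 0.16, edgeR adjusted p = 6.8e-06), a call that held with plate column (adjusted p = 0.00070) and with plate row (0.0060). Cebpb, an inducible factor of the same family, rose from 28.4 ± 3.07 to 53.9 ± 17.4 CPM (0.92, SE 0.23, edgeR adjusted p = 0.0072), and did not pass with plate column (0.13) or plate row (0.39). Foxo1 also fell (-1.48, SE 0.40) and Nr0b2, a corepressor known as SHP, rose (1.36, SE 0.38), from 1.37 CPM in controls to 3.47 CPM at 6 mg/kg, with 3.56, 3.65 and 2.94 CPM at 0.03, 0.3 and 3 mg/kg, where it did not pass. Cebpd, another inducible C/EBP factor, was at 0.24 (SE 0.23, edgeR adjusted p = 0.48).

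Of 13 tested genes of the glucocorticoid response, 3 rose and 2 fell at 6 mg/kg, with a median of -0.10. Those that rose were the cell cycle inhibitor Cdkn1a (2.78, SE 0.58, from 0.421 CPM in controls), the chaperone Fkbp5 (1.19, SE 0.30) and the amino acid enzyme Tat (1.20, SE 0.34). The control mean of Cdkn1a lay under the cutoff of the low-count filter (1.13 CPM). Cdkn1a may thus have reached the test mainly through libraries where it was high, and its call is a description only. Tat did not follow dose: it was at 2.66 CPM in controls, 7.13, 5.56 and 2.17 CPM at 0.03, 0.3 and 3 mg/kg and 6.20 CPM at 6 mg/kg, and its difference at 0.03 mg/kg (1.40, SE 0.34) did not pass after adjustment over all probes. Those that fell were Hsd11b1, which regenerates the active hormone (-0.94, SE 0.19), and the signalling inhibitor Errfi1 (-0.90, SE 0.25). The receptor Nr3c1 was at -0.10 (SE 0.13, edgeR adjusted p = 0.60).

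Of 24 other positive acute-phase genes tested, 4 rose and 9 fell at 6 mg/kg, with a median of -0.40. S100a8 (4.92, SE 0.45), the pentraxins Apcs, from 118 to 235 CPM, and Crp, from 191 to 413 CPM (1.12, SE 0.24), and Il1rn rose. The fibrinogen chain Fga fell from 6203 to 3141 CPM (-0.98, SE 0.16), the inhibitor heavy chain Itih3 from 1389 to 733 CPM (-0.92, SE 0.16), and the iron hormone hepcidin, Hamp, from 61.8 to 11.3 CPM (-2.45, SE 0.43). Fgb, Fgg, Cfb, Mt1, Cxcl1 and Serpina3g also fell. S100a8 was the only gene of this list called at 3 mg/kg (4.10, SE 0.44).

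Negative acute-phase genes, which hepatocytes make less of in inflammation, fell in 7 of 20 and rose in 2 at 6 mg/kg, with a median of -0.23. Fetuin-A, Ahsg, fell from 1753 to 668 CPM (-1.39, SE 0.16), the growth factor Igf1 from 88.5 to 49.4 CPM (-0.84, SE 0.13) and transferrin, Trf, from 4109 to 2639 CPM (-0.64, SE 0.13). The retinol carrier Rbp4 (1.34, SE 0.42) and the bile acid enzyme Cyp7a1 (3.01, SE 0.84) rose. At 3 mg/kg Ahsg fell (-0.63, SE 0.16) and Cyp7a1 rose (3.65, SE 0.86), though not without the fourth libraries at 3 and 6 mg/kg (1.08, edgeR adjusted p = 0.32).

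The last list held binding partners and receptors of the 10 proteins together with the ORMDL genes, which share only their name with the orosomucoids. Of its 19 tested genes, 3 were called higher and 2 lower at 6 mg/kg, and 1 of the 3 was an ORMDL gene. Cd36, a scavenger receptor that takes up serum amyloid A and lipids, rose from 10.2 to 28.2 CPM (1.48, SE 0.28), and Ormdl3, a regulator of sphingolipid synthesis, rose from 42.9 to 99.6 CPM (1.21, SE 0.27). Tgfbr2, a TGF-beta receptor, rose from 1.62 to 3.62 CPM (1.17, SE 0.39). The formyl peptide receptor Fpr1 fell from 16.8 to 6.41 CPM (-1.39, SE 0.31) and the lipoprotein receptor Scarb1 from 129 to 78.4 CPM (-0.71, SE 0.17). No gene of the 7 lists was called at 0.03 or 0.3 mg/kg. With plate column as a covariate, the calls at 6 mg/kg were 0 of 9 for interleukin-6, 0 of 22 for interleukin-1, 1 of 17 for transcription factors, 1 of 13 for glucocorticoid genes, 6 of 24 (3 higher) for positive and 3 of 20 for negative acute-phase genes and 2 of 19 for the partner list. With plate row they were 0 of 9, 1 of 22, 1 of 17, 1 of 13, 4 of 24 (S100a8 higher and 3 lower), 2 of 20 and 0 of 19 in the same order, so that the calls of Apcs, Crp, Il1rn, Cd36, Ormdl3, Tgfbr2, Fpr1 and Scarb1 were lost. Controls and 6 mg/kg libraries share no well column. The column term in that comparison is a straight line over columns, estimated from wells within the groups. It does not fully separate column from dose there. The shares of all genes called in the fits with plate column and plate row are not given beside these counts. Whether the drop in calls is particular to these lists was not tested.

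**Figure D5:**
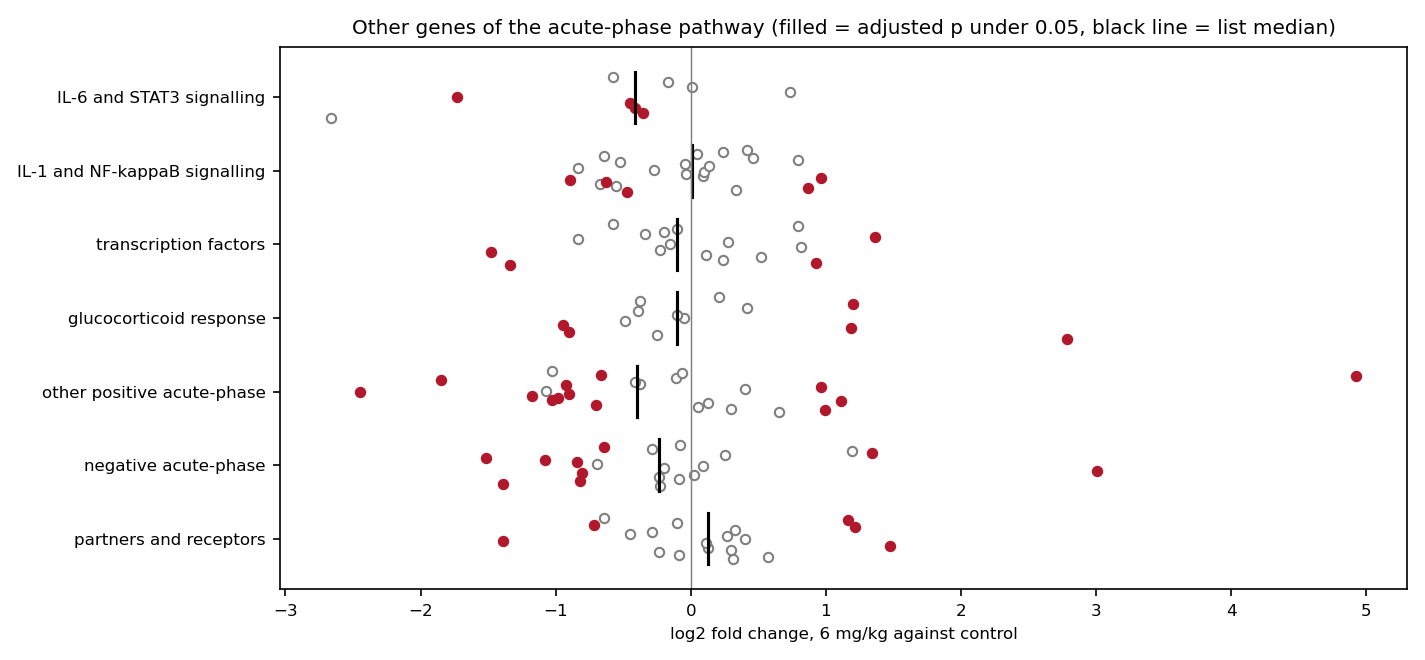
Log2 fold change at 6 mg/kg against control for the tested genes of 7 lists, 1 point per gene, filled where the adjusted p is under 0.05, with a black line at each list's median. The median lies at -0.41 for interleukin-6 and STAT3 signalling, -0.40 for other positive and -0.23 for negative acute-phase genes, and between -0.10 and 0.13 for the other 4 lists.

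Genes whose level followed a member most closely over the 20 libraries were ranked by Pearson's r of log2 CPM, as a description without a test, since libraries of 1 dose share the dose. For Lrg1 the closest was Cebpa (r = 0.952), followed by the complement gene C8b (0.920) and the glutamate transporter Slc1a2 (0.919). For Orm2 they were Prelid2 (0.940), the lipase-related Pnliprp1 (0.934) and the glutathione transferase Gsta4 (0.934), and for Orm3 Gm3776 (0.945), the mitotic kinesin Kif20a (0.944) and the fatty acid elongase Elovl6 (0.941). The other members had weaker companions: the highest r was 0.859 for Lcn2 (Cyp3a59), 0.822 for Saa2 (Zw10), 0.818 for Saa3 (Bbs5), 0.739 for Saa1 (BC024978), 0.890 for Orm1 (Cdk5rap3), 0.885 for Hp (Nutf2) and 0.898 for Saa4 (Ctsb).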

How the data were processed

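Raw counts of each probe were deposited by the authors in 1 table, with a column for each of the 20 mice. Bowtie and GRCm38.p5 are named in the submitters' processing notes, with no version or settings. Replicate numbers follow accession order and pair no animals, since the labels give none.

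The default low-count filter of edgeR 4.0.16 (R 4.3.3) passed 14122 probes for 10101 genes, with 99.8% of all counts. The robust quasi-likelihood test used TMM factors and a mean for each group, estimated from the 20 libraries together. Benjamini-Hochberg adjustment covered all tested probes with a threshold of 0.05, and calls are read against the share of all tested probes called. The slope is a separate fit on dose rank. CPM use TMM-scaled library sizes. With edgeR, SE is the size of the log2 fold change divided by the square root of the test's F statistic. It restates the test and is not a separate estimate. Levels are not compared between probes, whose efficiencies differ.

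All probes of the 10 genes are named, and the probe with the highest mean count is the main probe. From each pathway list up to 3 rising and 3 falling genes with the smallest p are named, with Il6ra, Il6st, Stat3, Socs3, Cebpb, Cebpd and Nr3c1 whatever their values. The remaining genes called lower among positive acute-phase proteins were named after their values were seen. So were Il6, C1qb, Folr2, S100a9, the other neutrophil genes and the hepatocyte markers. Members, lists and cell type markers were chosen with earlier results of these data known.

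Alternatives were other scalings and count filters, DESeq2 1.42.0, limma-voom (limma 3.58.1), a non-robust fit, sums of a symbol's probes, only the groups compared, plate row as a covariate, other dose scales, each library left out in turn, and the fourth libraries at 3 and 6 mg/kg left out together. Plate column as a covariate was added after seeing the data. Promoter windows are from RefSeq and gene positions and transcripts from GENCODE, aligned with Biopython 1.88. The functions were tested on simulated counts.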

Additional observations from a re-analysis of the deposited data

Results flagged for a closer look

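In groups of 4 libraries, 4 of 65 sets of a probe and a dose had a library whose gap to the nearest of the others exceeded Dixon's 95% critical value, and chance flags about 1 in 20. Saa2 in replicate 2 at 6 mg/kg read 104 CPM against 70.8 to 76.4 CPM in the other 3. The third Hp probe read 253 CPM in replicate 4 at 0.3 mg/kg against 346 to 359 CPM, and that library is the only one of its group from plate row B. In replicate 4 at 3 mg/kg the third Hp probe read 554 CPM against 257 to 305 CPM, and the second Hp probe read 308 CPM against 822 to 876 CPM.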

How the results depend on the processing

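Called probes of these genes kept their direction in every alternative run. The number called at 3 mg/kg was 2 and became 1 with no count filter, 1 with plate column as a covariate, 0 on the groups compared alone and 0 with plate row, and lay between 1 and 3 with single libraries left out. At 6 mg/kg it was 7 and became 3 with plate row (the main Orm3 probe, Lrg1 and Saa4) and 4 with plate column (Orm2, both Orm3 probes and Lrg1), and lay between 5 and 8 with single libraries left out. For 6 against 3 mg/kg it was 3 and became 6 with DESeq2, 5 with limma-voom, 6 without the fourth libraries at 3 and 6 mg/kg, 0 on the groups compared alone and 0 with plate column, and lay between 0 and 5 with single libraries left out. For the slope it was 6, became 0 with plate row, and lay between 5 and 7 with single libraries left out. At 0.03 and 0.3 mg/kg it was 0 throughout. These counts in the alternatives are given without the share of all probes called in the same setting. Whether a shift is particular to these genes was not tested. Fits on fewer libraries estimate the spread with fewer samples, and plate row nearly coincides with dose. Plate column crosses dose in part: controls lay in columns 2 to 5 and the 3 mg/kg group in 3 to 6. The 0.03 mg/kg group lay in columns 6 to 9 and the 6 mg/kg group in 7 to 10. The cause of the shifts with plate column and of the other shifts was not tested. Without the fourth libraries at 3 and 6 mg/kg, the main Hp probe was called at 6 mg/kg (log2 0.38, edgeR adjusted p = 0.028). When libraries were scaled by their totals, the median log2 difference of all probes at 6 mg/kg became 0.15, with 1894 called higher and 811 lower against 1634 and 1233. No paired analysis was possible because the labels carry no replicate numbers. Depth limits Saa4 and the controls of Orm3, which lie near 3 counts.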
